A study of Mus musculus with 12 samples.

Results

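The effect of the T58A point mutation of MYC was examined in splenic B cells stimulated with lipopolysaccharide (LPS), a bacterial cell wall component that makes B cells proliferate and mature into secretors of antibody. The comparison rests on 6 of the 12 RNA-seq libraries of the study, chosen by culture condition: 3 from T58A mice and 3 from WT mice, all from primary mature B cells of the spleen grown with LPS and harvested after 48 hours. The other 6 libraries come from marrow B cells grown with interleukin 7 (IL7) for the same time, 3 of each genotype, and are used here only where the 2 cultures are compared. The study design describes the mice as littermates. The strain, the ages, the sex and whether the T58A mice carried 1 or 2 mutant alleles are not given in the sources used here, and neither is the number of mice behind each culture. The titles number the libraries as pairs 1 to 3. The LPS table heads 2 of its T58A columns alike, so these libraries are called T58A a, taken with WT 1, and T58A b, taken with WT 2.

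MYC is a transcription factor that drives growth, and ribosome production is among its best known outputs. Threonine 58 of MYC is phosphorylated by GSK3, which marks the protein for the ubiquitin ligase subunit FBW7 and for destruction. Replacing that threonine with alanine removes the mark, and the protein is known to last longer. In B cells, Blimp-1 (encoded by Prdm1) represses Myc as plasmablasts form, while IRF4 and XBP1 set up the secretory apparatus.

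Between 5110746 and 9332410 reads fell on genes in each LPS library, and 3 reads were worth between 2.15 and 4.12 normalised reads. B cell transcripts were abundant in all 6 libraries: Cd79b, a chain of the B cell antigen receptor, lay between 10257 and 14578 normalised reads. Some defining markers of other cells were at or near 0, while others, such as Mpeg1 of macrophages at 1442 to 1870, were not. Cd3e of T cells reached at most 1.37 and Lyz2 of myeloid cells at most 24.4. Both haemoglobin alpha genes were listed at 0 throughout, while Alas2, also of erythroid cells, lay between 3.60 and 14.7. The sexes of the libraries were not balanced. Xist, which is transcribed from the inactive X chromosome of females, was at 11281 in WT 1 and 16684 in WT 2 and at no more than 8.85 in the other 4 libraries, while Ddx3y, encoded on the Y chromosome, was at 0 in WT 1 and WT 2 and at 745 to 980 in the others. Pairs 1 and 2 therefore set a female WT library against a male T58A library, and in them sex and genotype cannot be told apart. Pair 3 is male on both sides, and its values are given beside the main lists and genes.

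The pairs accounted for 62.6% of the variation of the log2 values, genotype after the pairs for 18.4%, and the residual for 18.9%. In each pair the T58A library lay higher on the first principal component and lower on the second than its WT partner.

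**Figure D1:**
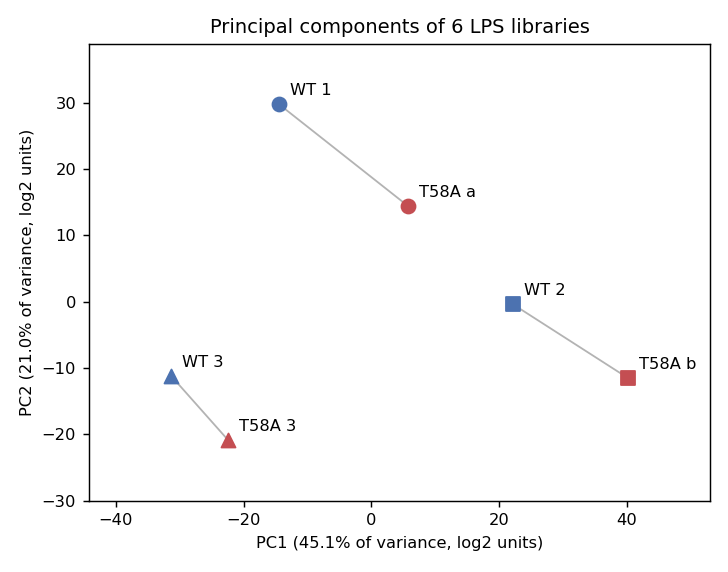
Scores of the 6 LPS libraries on the first 2 principal components of log2(normalised reads + 1) over 11291 genes. Circles, squares and triangles mark pairs 1, 2 and 3, blue is WT, red is T58A, and a line joins the partners of a pair. The 3 lines run in the same direction, from upper left to lower right, and the one of pair 3 is the shortest.

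With the pair as a block, limma called 2 of 11291 genes higher in T58A, 0.0177% of those tested, and 2 lower, also 0.0177%, at an adjusted p under 0.05. Without the block limma called 0 genes, with a smallest adjusted p of 0.259 and 284 genes (2.52%) at an unadjusted p under 0.05. The threshold fell in a dense stretch of values: 17 genes were higher and 23 lower at an adjusted p under 0.06, and 108 and 139 under 0.1. Count models with the same block called more. By edgeR 16 genes were higher (0.142%) and 23 lower (0.204%), and by DESeq2 83 were higher (0.735%) and 145 lower (1.28%). At an unadjusted p under 0.05 limma with the block held 955 genes higher (8.46%) and 934 lower (8.27%), and these shares are the background for the gene lists described here. The genotypes did not overlap in 350 genes with T58A higher (3.1%) and in 373 with T58A lower (3.3%). The 4 tested genes of the Y chromosome, which follow the sexes of the libraries, are among the 83 and the 955, and 2 of them are among the 350. Of 356 tested genes of the X chromosome, 8 were higher and 31 lower at an unadjusted p under 0.05. Leaving out pair 3, limma called 170 higher and 213 lower, against 22 and 23 without pair 1 and 26 and 35 without pair 2. The median change over all genes was 0.02 in pair 1, 0.01 in pair 2 and 0.00 in pair 3 on the log2 scale.

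Transcripts of Myc itself did not pass the test. They were at 749 (WT 1) and 961 (T58A a), 1095 (WT 2) and 1418 (T58A b), and 731 (WT 3) and 693 (T58A 3) normalised reads. The T58A library was higher in pairs 1 and 2 and slightly lower in pair 3, and the groups overlapped. On the log2 scale the difference was 0.22 ± 0.11 (SE, 3 pairs), and the limma adjusted p was 0.344. The counts hold mutant and normal transcripts alike and are no check of the genotype. Of 19 tested genes of the MYC network, 2 were higher and 2 lower at an unadjusted p under 0.05. Mnt, a repressor that competes for the MYC partner MAX, differed by 0.40 ± 0.13 (SE) and Fbxw7, which encodes FBW7, by -0.19 ± 0.09 (SE) on the log2 scale, neither passing after adjustment.

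Genes for the protein components of the ribosome were higher in T58A. Rpl37a, a large subunit protein gene on chromosome 1 (mm10, 72711290 to 72713813, plus strand), was at 177 and 729.7 normalised reads in WT 1 and T58A a, 131 and 764 in WT 2 and T58A b, and 123 and 401 in WT 3 and T58A 3. Every T58A library lay above every WT library. It rose by 2.09 ± 0.15 (SE) on the log2 scale, with a limma adjusted p of 0.00321. Rps19, a small subunit protein gene on chromosome 7 (mm10, 24884371 to 24889806, plus strand), was at 914 and 1839, 507 and 1194, and 970.1 and 1504 normalised reads in pairs 1, 2 and 3, WT first. Again the 2 groups did not overlap. It rose by 0.96 ± 0.11 (SE), with a limma adjusted p of 0.0494.

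Of 45 tested large subunit genes, 42 had a positive log2 change, 27 were higher at an unadjusted p under 0.05 and 0 lower, where 8.46% of all genes were higher. The median log2 change was 0.42, with pair medians of 0.51, 0.39 and 0.26, and in pair 3 alone 33 of the 45 were higher. Of 33 tested small subunit genes, 30 had a positive change, 24 were higher at that p and 0 lower. Their median was 0.34, with pair medians of 0.47, 0.33 and 0.23, and 27 of the 33 were higher in pair 3. After adjustment 1 gene of each subunit passed by limma, 3 of each by edgeR, and 12 large and 7 small subunit genes by DESeq2. Rpl32 was at 5333 and 9386, 4222 and 6526, and 3476 and 4617 normalised reads in pairs 1 to 3 (log2 change 0.62 ± 0.10, SE). Rps25 was at 497 and 701, 299.97 and 690.3, and 289.95 and 514, also higher in T58A in each pair (0.84 ± 0.13, SE).

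Ribosomal protein genes have many processed pseudogenes, whose near-identical sequence can take or lose reads. Of the 78 tested ribosomal protein genes, 75 shared at least 100 bases at 95% identity with a pseudogene, with a median of 6 such copies. Rpl37a matched 47 other genes, 6 of them pseudogenes, and Rps19 matched 13, so their single values are uncertain. Large changes in single pairs were common: 29 of 78 changed by more than 1 log2 unit in at least 1 pair, 37.2% against 7.19% of all genes. Of 27 plasmablast genes 10 (37.0%) did so as well. Rpl23a, for example, differed by 4.24 in pair 1, -0.12 in pair 2 and 0.27 in pair 3, and Rpl35 by 0.48, 5.18 and -1.97. Changes beyond 0.5 log2 units in opposite directions in different pairs were seen in 10 of the 78 ribosomal protein genes (12.8%). They were seen in 3.03% of all genes and in 1 of 27 plasmablast genes (3.70%). Ordered by their mean over all 6 libraries, the 39 genes of lowest mean had a median change of 0.56 and the other 39, with means from 568 to 35042 normalised reads, 0.33. Whether copies of these genes play a part in the differences was not tested.

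**Figure D2:**
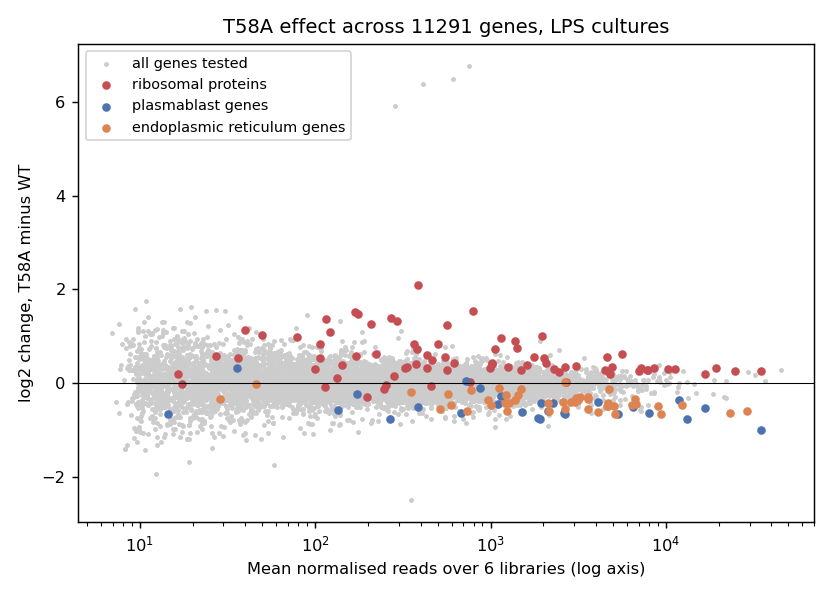
Log2 change (T58A minus WT, fit over 3 pairs) of each of 11291 genes against its mean normalised reads over the 6 LPS libraries, on a log axis. Red points are ribosomal protein genes, blue points plasmablast genes and orange points endoplasmic reticulum genes, and grey points all genes tested. Most red points lie above 0 and most blue and orange points below it, and the 4 grey points near the top are genes of the Y chromosome.

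Genes whose products build ribosomes also leaned upward, but by less, and by almost nothing in pair 3. All 43 tested ribosome biogenesis genes had a positive log2 change, 19 were higher at an unadjusted p under 0.05 and 0 lower, and 0 passed limma after adjustment, as against 4 by DESeq2. The median was 0.23, with pair medians of 0.42, 0.20 and 0.01. In pair 3 24 of 43 were higher and 19 lower. Ppan, a factor of large subunit maturation, was at 390.1 and 571, 525 and 687, and 519 and 679 normalised reads in pairs 1 to 3. It was higher in T58A in each pair, the change being 0.44 ± 0.09 (SE) with a limma adjusted p of 0.0858. Polr1b, a subunit of RNA polymerase I, which transcribes ribosomal RNA, was at 254 and 326, 284 and 371, and 303 and 419 (0.40 ± 0.10, SE). Dkc1, the pseudouridine synthase dyskerin, was at 431 and 769, 465 and 638, and 630.03 and 736 (0.50 ± 0.12, SE). Mybbp1a, a nucleolar protein, differed by 0.36 ± 0.08 (SE), and Npm1, the nucleolar protein nucleophosmin, by 0.72, 0.33 and 0.05 in pairs 1 to 3.

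MYC with its partner MAX binds the E-box CACGTG, so promoter windows were searched for it. The windows come from RefSeq (GRCm38.p6) and reach from 250 bases before to 50 after a start site, and the motif reads the same on both strands. It was present in 9 of the 38 ribosome biogenesis genes with a window (23.7%) and in 12.3% of the 8941 tested genes with one. Over all 32851 windows in the table the share was 7.15%. Among genes higher at an unadjusted p under 0.05 it was 14.8%, and among those lower 12.1%. The sequences around the E-box show how the flanks differ between 7 of these 9 genes, in order of p and written along each gene's own strand with the motif in capitals and 8 bases on either side.
Nop2 (chr6:125131823-125131828): ccctggatCACGTGtgttccgg
Nle1 (chr11:82908367-82908372): ttctcctcCACGTGgggacgca
Tsr1 (chr11:74898104-74898109): ttggtgcaCACGTGgactgcag
Pes1 (chr11:3963977-3963982): aggcagggCACGTGcgggagga
Wdr43 (chr17:71616232-71616237): cgggcgaaCACGTGgctgccgc
Imp4 (chr1:34439708-34439713): tcttagacCACGTGacatccca
Grwd1 (chr7:45830750-45830755): cggagtcgCACGTGtgaaaccg
The log2 changes of these 7 genes were 0.30, 0.33, 0.19, 0.23, 0.21, 0.12 and 0.15 in that order, and the first 4 were higher at an unadjusted p under 0.05. Of all 9 genes with the E-box 5 were higher at that p, with a median of 0.21, and of the 29 with a window but no E-box 12 were, with a median of 0.24. Ppan, the gene of the list with the smallest p, has no E-box in its window, nor do Rpl37a and the first of 3 windows of Rps19. Their windows, plus strand on GRCm38.p6, show what the promoters of the genes named first consist of.
Rpl37a (chr1:72711010-72711309): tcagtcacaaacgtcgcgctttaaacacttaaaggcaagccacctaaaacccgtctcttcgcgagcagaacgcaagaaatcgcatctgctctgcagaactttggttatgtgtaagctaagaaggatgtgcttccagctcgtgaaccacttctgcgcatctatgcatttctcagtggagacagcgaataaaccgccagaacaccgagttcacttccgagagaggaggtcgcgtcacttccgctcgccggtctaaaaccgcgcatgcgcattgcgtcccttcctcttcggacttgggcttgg
Rps19 (chr7:24884342-24884641): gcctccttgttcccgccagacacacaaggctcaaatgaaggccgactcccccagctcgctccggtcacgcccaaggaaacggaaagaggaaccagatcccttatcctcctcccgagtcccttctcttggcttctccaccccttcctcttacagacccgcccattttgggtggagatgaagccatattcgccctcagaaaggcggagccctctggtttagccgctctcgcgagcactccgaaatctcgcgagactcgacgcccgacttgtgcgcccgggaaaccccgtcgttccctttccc
Ppan (chr9:20887925-20888224): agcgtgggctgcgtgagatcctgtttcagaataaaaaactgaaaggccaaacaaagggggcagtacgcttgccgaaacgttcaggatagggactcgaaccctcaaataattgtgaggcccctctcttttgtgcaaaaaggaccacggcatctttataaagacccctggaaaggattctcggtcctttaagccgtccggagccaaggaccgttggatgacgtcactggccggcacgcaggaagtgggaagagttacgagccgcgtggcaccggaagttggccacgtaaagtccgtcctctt
No capitals appear in these 3 because neither the E-box nor the element searched in the secretory genes is in them.

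Noncoding host genes of small nucleolar RNAs, which are spliced out of introns and guide the modification of ribosomal RNA, were higher with the ribosomal genes. Of 9 tested, 8 were higher at an unadjusted p under 0.05 and 0 lower, with a median of 0.49 and pair medians of 0.66, 0.40 and 0.14. Gas5 was at 2903 and 5602, 2511 and 3363, and 2785 and 3285 normalised reads in pairs 1 to 3 (log2 change 0.54 ± 0.13, SE). Snhg4 was at 128 and 203, 70.02 and 116, and 112 and 149.6 (0.60 ± 0.14, SE). None passed limma after adjustment.

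Other growth lists differed by less. Of 31 nucleotide and polyamine synthesis genes 9 were higher and 1 lower at an unadjusted p under 0.05, with a median of 0.14 and pair medians of 0.24, 0.15 and 0.05. Pfas, of purine synthesis, was at 493 and 661, 557 and 735, and 567 and 711 normalised reads in pairs 1 to 3 (log2 change 0.38 ± 0.08, SE). Of 27 chaperone genes 6 were higher and 0 lower, with a median of 0.16 and pair medians of 0.37, 0.11 and 0.00. Trap1, a mitochondrial chaperone, differed by 0.34 ± 0.08 (SE). Of 35 translation factors 5 were higher and 2 lower, of 20 glycolysis genes 4 and 0, of 77 mitochondrial ribosomal protein genes 4 and 3, and of 74 oxidative phosphorylation genes 3 and 2. Of 20 aminoacyl tRNA synthetase genes 0 were higher and 1 lower. Of 21 genes of amino acid transport and the ATF4 response, 0 were higher and 4 lower, with a median of -0.18, among them Slc7a11, the cystine transporter, at -0.93 ± 0.30 (SE). The pair medians of that list were -0.33, -0.11 and 0.04, and in pair 3 14 of the 21 were higher. None of the genes in these 8 lists passed limma after adjustment.

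The other 3 genes of smallest p among those higher were not called by limma but were called by edgeR. Ccr7, the chemokine receptor that guides lymphocytes to T cell zones, was at 1096 and 2441, 1913 and 3932, and 882 and 1254 normalised reads in pairs 1 to 3. It was higher in T58A in each pair, although WT 2 lay above T58A 3, by 0.90 ± 0.12 (SE) on the log2 scale (limma adjusted p = 0.055). Inf2, a formin that shapes actin, was at 661 and 1037, 1378 and 2205, and 634 and 872 (0.60 ± 0.09, SE). Pqlc1 was at 137 and 254, 206 and 367, and 142 and 218 (0.78 ± 0.12, SE). Pqlc1 shared at least 100 bases at 95% identity with 52 other genes, 1 of them a pseudogene, so its values are uncertain.

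Among the genes that were lower in T58A, Dhrs1 and Sepp1 passed limma. Dhrs1, a short-chain dehydrogenase on chromosome 14 (mm10, 55739020 to 55745690, minus strand), was at 1615 and 719, 1156 and 576, and 1408 and 911 normalised reads in pairs 1 to 3. All T58A values lay below all WT values. It fell by 0.93 on the log2 scale, with an SE of 0.11 and a limma adjusted p of 0.0494. Sepp1, which encodes the selenium carrier selenoprotein P, lies on chromosome 15 (mm10, 3268547 to 3280508, plus strand) and was at 2192 and 1149.7, 1115 and 699.6, and 1394 and 848. The groups overlapped slightly, T58A a lying above WT 2. It fell by 0.77, with an SE of 0.09 and a limma adjusted p of 0.0494. Gpr55, a lipid receptor, was at 854 and 415, 526 and 329, and 979 and 595 (-0.81 ± 0.10, SE, limma adjusted p = 0.0504). H1f0, a linker histone of resting and differentiated cells, was at 1082 and 595, 720.1 and 416, and 1141 and 794 (-0.73 ± 0.09, SE). Pik3cg, the catalytic subunit of phosphoinositide 3-kinase gamma, was at 3316 and 1276, 1604 and 950.5, and 3467 and 2232 (-0.92 ± 0.13, SE). Both had a limma adjusted p of 0.055, and none of these 5 genes shares 100 bases at 95% identity with another gene.

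**Figure D3:**
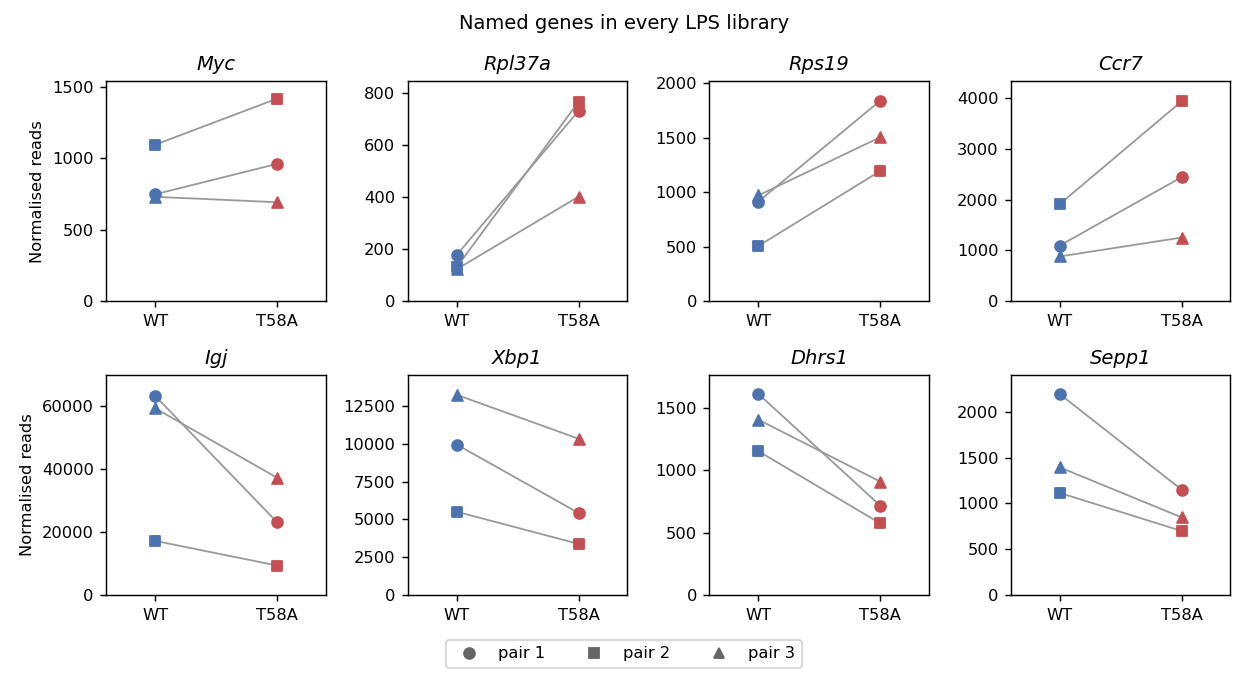
Normalised reads of 8 genes in each LPS library, WT at left and T58A at right, with a line joining the partners of a pair and circles, squares and triangles for pairs 1, 2 and 3. Each vertical axis starts at 0. Rpl37a, Rps19 and Ccr7 are higher and Igj, Xbp1, Dhrs1 and Sepp1 lower in T58A in all 3 pairs, while Myc is higher in pairs 1 and 2 and slightly lower in pair 3.

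Genes of plasmablasts, the dividing antibody-secreting cells that LPS elicits, were lower in T58A. Of 27 tested, 25 had a negative log2 change, 21 were lower at an unadjusted p under 0.05 and 0 higher, where 8.27% of all genes were lower. The median was -0.58, with pair medians of -0.79, -0.46 and -0.32, and 23 of the 27 were lower in pair 3. After adjustment 0 passed limma, 2 passed edgeR (Igj and Eaf2) and 16 passed DESeq2. In bulk cultures, fewer plasmablasts and less of these transcripts per cell cannot be told apart.

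The transcription factors of the list were lower in T58A in each pair. Prdm1, which encodes Blimp-1, was at 2592 and 1385, 2196 and 1469, and 2810.07 and 2239 normalised reads in pairs 1 to 3. Each T58A library lay below its WT partner, by a log2 change of -0.60 ± 0.11 (SE), and WT 2 lay below T58A 3. Xbp1, which turns on the secretory apparatus, was at 9955 and 5432, 5514 and 3388, and 13245 and 10336 (-0.64 ± 0.11, SE). Irf4 differed by -0.51 ± 0.11 (SE), and the coactivator Pou2af1 by -0.35 ± 0.10 (SE). Eaf2, an elongation factor partner of Ell2, was at 992 and 600.05, 465 and 282, and 1004 and 728 (-0.63 ± 0.09, SE), and Ell2, which promotes the secreted form of immunoglobulin heavy chain, differed by -0.66 ± 0.13 (SE). Eaf2 shared at least 100 bases at 95% identity with 5 other genes.

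Products of the secreting cell were lower too. Igj, the joining chain of pentameric IgM, was at 63378 and 23218, 17254 and 9409, and 59432 and 37355 normalised reads in pairs 1 to 3. It was lower in T58A in each pair, and the pairs themselves differed by more than the genotypes, WT 2 lying below T58A a and T58A 3. The log2 change was -0.998 ± 0.161 (SE), with a limma adjusted p of 0.0565 and an edgeR adjusted p of 0.0408. Mzb1, a chaperone of IgM assembly, was at 25843 and 15748, 12980 and 9014, and 21025 and 16165 (-0.54 ± 0.11, SE). Il10, an anti-inflammatory cytokine, was at 2592 and 2026, 2843 and 1586, and 1685 and 794, and its pair changes were -0.36, -0.84 and -1.08, the largest in pair 3. Tigit, an inhibitory receptor, differed by -0.76 ± 0.14 (SE). Sdc1, the surface marker CD138, was at 192 and 150.01, 123 and 92.5, and 235 and 243, lower in pairs 1 and 2 and slightly higher in pair 3. Tnfrsf13b, which encodes TACI, and Cd93 differed by -0.11 and 0.04, and the highest log2 change in the plasmablast list was 0.31.

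Genes of protein folding and export in the endoplasmic reticulum were lower as well, and the log2 changes of members ran from -0.66 to 0.02. Of 46 tested, 45 had a negative log2 change, 37 were lower at an unadjusted p under 0.05 and 0 higher. The median was -0.42, with pair medians of -0.66, -0.36 and -0.25, and 41 of 46 were lower in pair 3. None passed limma or edgeR after adjustment and 25 passed DESeq2. The list includes several targets of XBP1 and shares its direction with the plasmablast list in the same cells, so it is no separate support.

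Members from each step of the route were lower. For entry, Sec61b of the translocon differed by -0.47 ± 0.10 (SE) and Spcs3 of the signal peptidase, at 6180.2 and 4073, 3884 and 3057, and 6118 and 4269 normalised reads in pairs 1 to 3, by -0.49 ± 0.09 (SE). For glycosylation, Rpn1 differed by -0.50 ± 0.11 (SE). For folding, Hspa5, the chaperone BiP, differed by -0.64 ± 0.14 (SE), Hsp90b1, the chaperone GRP94, by -0.61 ± 0.14 (SE), and Manf, a secreted stress factor at 6793 and 3529, 3069.7 and 2080.2, and 5185 and 4019.8, by -0.62 ± 0.11 (SE). For disposal of misfolded protein, Sel1l differed by -0.65 ± 0.17 (SE), though by -0.11 in pair 3. For export, Sec23b of the COPII coat was at 1427 and 1117, 967 and 668, and 1758 and 1339.6 (-0.43 ± 0.08, SE). Sec23b shared at least 100 bases at 95% identity with 39 other genes, 1 of them a pseudogene, so its values are uncertain. Each of these 8 genes was lower in T58A in all 3 pairs. Of the sensors of the unfolded protein response, Ern1, which splices Xbp1, differed by -1.35, -0.37 and 0.04 in pairs 1 to 3, and Atf6 by -0.30 ± 0.09 (SE).

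Promoter windows of the secretory genes were searched on both strands for the endoplasmic reticulum stress element, written here as CCAAT, 9 bases of any kind and CCACG, a known response element of ATF6 and XBP1. It was present in 7 of the 37 genes of the list with a window (18.9%), in 14 of the 8941 tested genes with one (0.157%) and in 0.119% of all 32851 windows. It was in 2 of the 22 plasmablast genes with a window, in 7 of 728 genes lower at an unadjusted p under 0.05 and in 0 of 766 higher. The share in the list is a property of the sequences of the listed genes and does not measure the T58A effect. Dnajc3, Hspa5, Hsp90b1, Pdia6 and Calr of the list are among the 7 lower genes, so that count is no separate support. A match is a stretch of letters and not a measured binding site. The search itself fixes the conserved ends, so the 7 copies are shown for the spacer of 9 bases and the flanks. Each is written on the strand that carries it, with 8 bases on either side and the conserved ends in capitals.
Dnajc3 (chr14:118937827-118937845): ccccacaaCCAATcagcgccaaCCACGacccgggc
Hspa5 (chr2:34772025-34772043): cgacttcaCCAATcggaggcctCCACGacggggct
Hsp90b1 (chr10:86705638-86705656): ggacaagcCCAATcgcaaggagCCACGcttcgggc
Pdia6 (chr12:17266491-17266509): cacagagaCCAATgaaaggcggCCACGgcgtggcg
Calr (chr8:84847075-84847093): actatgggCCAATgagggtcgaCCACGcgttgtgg
Syvn1 (chr19:6046532-6046550): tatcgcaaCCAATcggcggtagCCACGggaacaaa
Canx (chr11:50325800-50325818): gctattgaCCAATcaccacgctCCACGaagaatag
Of these 7 genes, Dnajc3 differed by -0.55, Hspa5 by -0.64, Hsp90b1 by -0.61, Pdia6 by -0.50 and Calr by -0.47, all lower at an unadjusted p under 0.05. Syvn1 differed by -0.29 and Canx by -0.12, and both missed it. The copy in Calr lies on the strand opposite to the gene and the other 6 on the gene's own strand. Dnajc3, an inhibitor of the translation kinase PERK, has the smallest p of the 7 and was chosen for a whole window after its values were seen; the capitals mark the conserved ends, 96 bases before the start site at their middle.
Dnajc3 window (chr14:118937682-118937981, plus strand): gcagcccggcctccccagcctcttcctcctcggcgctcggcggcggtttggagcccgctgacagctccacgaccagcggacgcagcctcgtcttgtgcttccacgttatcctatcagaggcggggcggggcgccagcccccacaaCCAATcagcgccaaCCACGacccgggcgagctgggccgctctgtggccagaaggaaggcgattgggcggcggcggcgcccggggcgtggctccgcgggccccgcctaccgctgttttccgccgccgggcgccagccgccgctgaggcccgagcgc

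Markers of B cell subsets went in different directions. Of 31 tested genes of mature B cell identity, 7 were higher and 4 lower at an unadjusted p under 0.05, with a median of 0.11, and 0 passed limma after adjustment. Besides Ccr7 the higher ones included Fcer2a, which encodes the follicular B cell marker CD23, at 214 and 500.4, 567 and 857, and 481 and 675 normalised reads in pairs 1 to 3 (log2 change 0.77 ± 0.14, SE). Faim3, the IgM receptor, differed by 0.45 ± 0.08 (SE), and the transcription factors Pax5, which Blimp-1 represses, and Spib by 0.35 ± 0.09 (SE) and 0.32 ± 0.08 (SE). Cr2, the complement receptor CD21, was at 1510 and 1069, 1466 and 1133, and 1398 and 843, with every T58A library below every WT library (-0.53 ± 0.09, SE). Cd9, a tetraspanin of marginal zone, B-1 and plasma cells, was at 549 and 413, 488 and 335, and 432 and 257 (-0.57 ± 0.10, SE). S1pr3 and Cd1d1, also marginal zone markers, differed by -0.48 ± 0.13 (SE) and -0.34 ± 0.13 (SE), while Notch2, which marginal zone B cells need, differed by 0.31 ± 0.09 (SE). Of 16 follicular, marginal zone and B-1 markers 4 were higher and 6 lower at that p. The starting mix of B cell subsets was not measured, so its part in these differences was not tested. The constitutive genes Ms4a1 and Cd79b differed by -0.06 and -0.08.

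Among signalling lists, 7 of 32 NF-kB genes were higher and 1 lower at an unadjusted p under 0.05, with a median of 0.09. The pair medians were 0.25, 0.18 and -0.10, and in pair 3 22 of the 32 were lower in T58A. Nfkb2, a subunit of the noncanonical pathway, was at 899.8 and 1320.1, 2019.4 and 2861, and 968 and 1141 normalised reads in pairs 1 to 3 (log2 change 0.43 ± 0.09, SE). Bcl2l1, which encodes the survival protein BCL-XL, was the 1 lower, at -0.39 ± 0.09 (SE). Of 23 genes of LPS sensing 1 was higher and 5 lower, with pair medians of -0.21, -0.15 and -0.01. Among the lower ones Tlr7, on the X chromosome, differed by -0.38 ± 0.10 (SE). Its pair changes were -0.46, -0.59 and -0.10, the smallest in pair 3, the pair of one sex. The interferon response was dominated by 1 pair: 0 of 30 genes were higher and 5 lower, and the pair medians were -0.07, -0.76 and 0.22. Isg20, an interferon-induced exonuclease, was at 1411 and 850, 724 and 381, and 1358 and 1155, the member of smallest p (-0.63 ± 0.13, SE). Ifit1, another interferon-induced gene, differed by 0.48, -1.23 and 0.51 in pairs 1 to 3.

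Lists of division genes lay near the background. Of 40 DNA replication genes 5 were higher and 1 lower at an unadjusted p under 0.05, with pair medians of 0.23, 0.06 and -0.12. Of 35 mitosis genes 1 was higher and 2 lower, with pair medians of -0.04, 0.00 and -0.26, and in pair 3 31 of the 35 were lower in T58A. Aurka, a mitotic kinase, was at 383 and 277, 335 and 239, and 464 and 375 normalised reads in pairs 1 to 3 (log2 change -0.42 ± 0.10, SE). Of 21 tested inhibitors and quiescence genes 1 was higher and 2 lower, and of 23 p53 targets 5 and 3. Trp53inp1, a target of p53, was at 10224 and 5330, 5641 and 3986, and 9705 and 8083 (-0.57 ± 0.13, SE). None of these genes passed limma after adjustment. In the remaining lists the counts higher and lower at an unadjusted p under 0.05 were 0 and 2 of 14 for MHC class II presentation, 0 and 4 of 14 for MHC class I, and 1 and 2 of 13 for germinal centre and switching genes. They were 2 and 3 of 18 for immediate early genes, 2 and 1 of 14 for the BCL2 family, 1 and 1 of 31 for the proteasome, 5 and 0 of 27 for cholesterol and fatty acid synthesis, and 0 and 2 of 10 for histones. In pair 3 16 of the 18 immediate early genes were lower in T58A, while the medians of pairs 1 and 2 were 0.20 and 0.17.

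**Figure D4:**
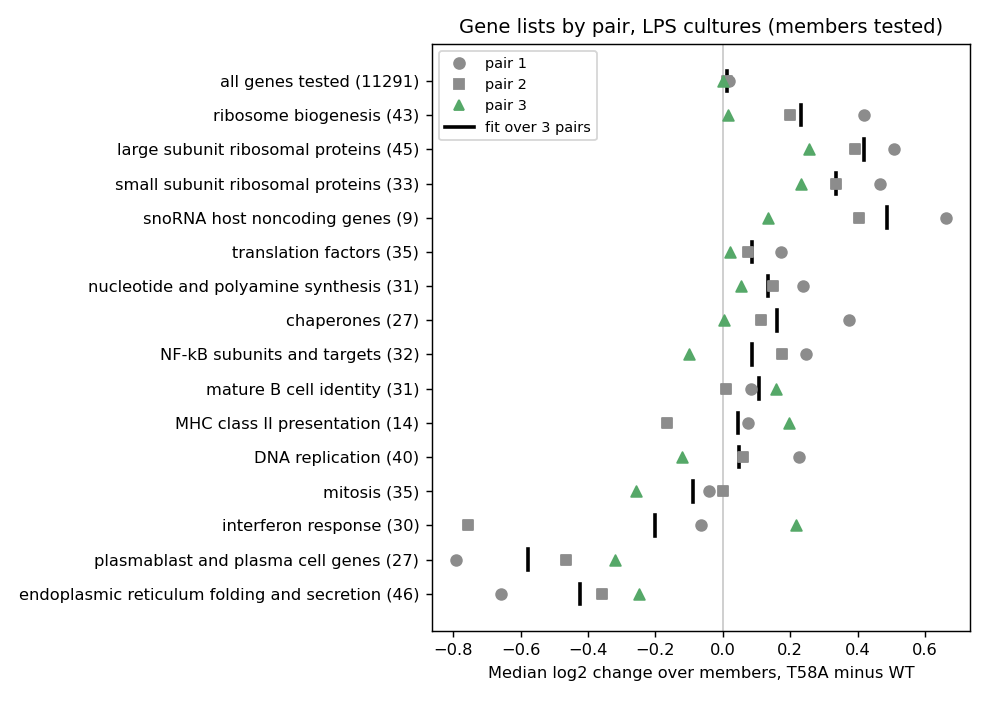
Median log2 change (T58A minus WT) over the tested members of 15 gene lists and over all genes, in each pair (circles, squares and green triangles for pairs 1, 2 and 3) and in the fit over 3 pairs (black bars). Numbers in brackets are members tested. The 3 pairs lie on one side of 0 for ribosomal proteins, small nucleolar RNA hosts, plasmablast and endoplasmic reticulum genes, and pair 3, the pair of one sex, is the nearest to 0 in each of them. The same holds, with smaller medians, for ribosome biogenesis, translation factors, nucleotide and polyamine synthesis, chaperones and all genes. For mature B cell identity the 3 pairs also lie above 0, but pair 3 is the farthest from it, at 0.16.

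Some markers of other cells were near 0 and others were not, and the cells that their transcripts came from were not measured. The summed T cell markers lay between 792 and 1044 normalised reads in WT and between 658 and 1023 in T58A, most of them from Lck and Cd247. Cd28, a costimulatory receptor of T cells, was at 201 and 54.0, 66.6 and 44.4, and 218 and 144 in pairs 1 to 3, lower in T58A in each pair (log2 change -1.01 ± 0.25, SE, limma adjusted p = 0.106). Cd3g was at 49.5 and 24.0, 10.4 and 0.717, and 21.6 and 7.82 in pairs 1 to 3, with Cd3e, Cd4 and Cd8a at or below 4.91 in all libraries. The summed NK cell markers were at 140.1 and 84.0, 120.2 and 63.8, and 226 and 116 in pairs 1 to 3, lower in T58A in each pair. Il2rb, which makes up most of that sum, was at 106 and 46.8, 83.0 and 41.6, and 165 and 77.2 in pairs 1 to 3. It was lower in T58A in each pair and the groups did not overlap (log2 change -1.08 ± 0.16, SE, limma adjusted p = 0.055). The summed monocyte and macrophage markers lay between 2274 and 2735 in WT and between 2556 and 2915 in T58A, with Mpeg1 and Itgam the largest. Those of dendritic cells lay between 1702 and 2045 in WT and between 1823 and 2528 in T58A, with Flt3 and Bst2 the largest. The summed neutrophil markers were at most 7.20, and those of mast cells at most 7.86. The part of T, NK, myeloid and dendritic cells in the results was not tested.

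The effect of T58A in LPS cultures was then set against that in the IL7 cultures of marrow B cells, which have WT libraries of their own. The question is which genes respond differently to the mutation in mature and immature B cells. The difference of the 2 effects, tested over all 12 libraries with 6 pair blocks, was higher in LPS for 269 of 12184 genes (2.21%) and lower for 79 (0.648%) at a limma adjusted p under 0.05. Without the blocks 0 genes passed, and 531 were at an unadjusted p under 0.05. Tissue, stage and stimulus differ together and cannot be told apart. Sex was unbalanced in the IL7 cultures in the same way: Xist was at 12436 in WT 1 and 23674 in WT 2 and at most 26.9 in the other 4 libraries, and Ddx3y was at 0 and 42.6 in those WT libraries and at 706 to 914 in the others. The part of sex in the difference between cultures was not tested.

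Of the secretory genes, 10 of 46 endoplasmic reticulum genes and 4 of 27 plasmablast genes had a lower effect in LPS and 0 a higher one. The endoplasmic reticulum median was -0.43 in LPS and 0.05 in IL7, on the log2 CPM scale of this test. Xbp1 differed by -0.65 in LPS and 0.23 in IL7. Of the ribosomal protein genes, 5 of 46 large subunit and 4 of 32 small subunit genes had a higher effect in LPS and 0 a lower one, while for ribosome biogenesis 0 of 43 differed, with medians of 0.23 in LPS and 0.31 in IL7. Of 14 genes of MHC class II presentation, which hold antigen for T cells, 11 differed: their median was 0.04 in LPS and -1.05 in IL7. Likewise 13 of 31 mature B cell genes and 11 of 32 NF-kB genes had a higher effect in LPS, with LPS medians of 0.10 and 0.08 beside IL7 medians of -0.52 and -0.66.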

How the data were processed

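RNA-seq of total RNA (TruSeq v2, per the labels' protocols) was processed with TopHat2 2.1.0, HTSeq 0.6.1 and DESeq2 on mm10, per the submitters' processing notes, which state no strand setting. The deposited signal values of the LPS table are read counts divided by a size factor per library: in each column all values are whole multiples (within 0.001) of the smallest, so whole reads were recovered. The authors' deposited log2 fold change, p-value and adjusted p-value columns were not used for results. They served to check the pairing of the T58A columns that share a header: DESeq2 (1.42.0) with shrunken changes gave 99.7% of the authors' deposited p-values within 1% with T58A a beside WT 1, 17.0% with the columns exchanged and 14.6% without a block. Their deviations from the group means correlated by 0.34, 0.66 and 0.54 within pairs and by -0.50 to -0.05 across pairs.

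Low counts were removed with filterByExpr, leaving 11291 of 24015 genes. The main test is limma (3.58.1, R 4.3.3) with an intensity trend on log2(value + 1), with the pair as a block and Benjamini-Hochberg adjustment over all genes tested. Log2 changes on this scale understate those of low genes. edgeR (4.0.16) and DESeq2 on the whole reads, limma-voom, other pseudocounts (0.5, 5), scalings and filters, sex as a term, and each pair left out were alternatives. The fits were also run on simulated counts with a pair effect but no difference of sex, so that run says nothing about the sex imbalance here. The difference between cultures used TMM log2 CPM with a prior count of 1. Gene positions and copies (blastn 2.17.0) come from GENCODE M21, which matched 98.5% of the symbols, and promoters from RefSeq, which had a window for 8941 tested genes.

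Named are Myc, the 5 genes of smallest p in each direction (fewer than 5 passed), leaving out predicted, antigen receptor and sex-linked genes, up to 4 of smallest p per list, and others chosen to describe a list after their values were seen. Some genes that this rule names are not reported here. Members and lists were chosen with earlier results of these data known. Nothing says that each library came from its own animal. The sex markers show only that the WT libraries, being female and male, did not all come from the same animal. The p-values of fits with the pair as a block rest on the spread of the differences within these pairs. Those of fits without the block rest on the spread between these samples. Whether either is a spread between animals is not known.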

Additional observations from a re-analysis of the deposited data

Results flagged for a closer look

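The effect of T58A differed between LPS and IL7 cultures for 348 genes by limma with pair blocks, and the 5 genes of smallest p in each direction are given here because the difference itself passed the test. All values are on the log2 CPM scale, n is 3 pairs per culture, and the causes were not tested. Without the blocks none of these passed. Ncf1, a subunit of the phagocyte oxidase, differed between cultures by 1.36 ± 0.12 (SE), being higher in T58A in 3 of 3 LPS pairs and lower in 3 of 3 IL7 pairs. Ccr7 differed by 1.78 ± 0.17 (SE), with changes of 1.15, 1.03 and 0.50 in the LPS pairs and -1.04, -0.89 and -0.74 in the IL7 pairs. Kmo, an enzyme of tryptophan breakdown, differed by 1.19 ± 0.12 (SE), again with opposite signs in all pairs. H2-Ab1 and H2-Eb1, the beta chains of the MHC class II molecules, differed by 1.07 ± 0.11 (SE) and 1.22 ± 0.13 (SE). Their LPS changes were 0.03 and -0.02 and their IL7 changes -1.04 and -1.24.

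In the other direction Myl10, a myosin light chain, differed by -1.80 ± 0.24 (SE), with a change of -2.09 in LPS and -0.29 in IL7. Pdzd2 differed by -1.19 ± 0.18 (SE), Slamf7, a receptor of plasma cells and other lymphocytes, by -0.75 ± 0.12 (SE), and Ergic1, of the compartment between endoplasmic reticulum and Golgi, by -0.71 ± 0.11 (SE). Xbp1 differed by -0.88 ± 0.14 (SE). These last 4 were lower in T58A in 3 of 3 LPS pairs and higher in 3 of 3 IL7 pairs.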

How the results depend on the processing

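The replicate block decided the calls: with no replicate block 0 genes were higher and 0 lower, and with the replicate block but the columns exchanged also 0 and 0. With the block, edgeR called 16 and 23, DESeq2 83 and 145, voom 25 and 42, and TMM scaling 18 and 23. Total count scaling called 2 and 3, a share of 40% higher against 50% in the main test. Testing all 15759 genes with a read called 0 and 0, and a mean value of at least 50 called 1 and 0. All 4 genes of the main test were among the calls of edgeR, DESeq2, voom, both pseudocounts, both scalings and each fit with a pair left out. The stricter filter and the fit with sex kept 1 of them. Leaving out a pair gave 22 to 170 higher and 23 to 213 lower genes. Sex as a term, which takes the effect from pair 3 alone and leaves 1 degree of freedom, called 6 and 4. It turned Myc to -0.077 (limma adjusted p = 0.97, from 0.0851 to 1 over all alternatives) and took the list medians to 0.014 (ribosome biogenesis), 0.26 (large subunit), 0.14 (small nucleolar RNA hosts) and -0.32 (plasmablast). The other list medians stayed within the spread of the pairs. The difference between cultures held 348 genes, 0 with no replicate block, 433 by edgeR, and 92 to 284 with 1 LPS pair left out. No scaling moved the median of all genes beyond 0.03. The shallowest library held 5110746 reads, and the count filter kept 11291 of 24015 genes.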

Other observations

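Several genes outside the lists were called by edgeR with the block, at edgeR adjusted p-values of 0.0408 to 0.0425, and are named here after their values were seen. Mreg, a melanosome transport protein, was at 163 and 444, 253 and 689.6, and 125 and 174 normalised reads in pairs 1 to 3, WT first. Mt2, a metallothionein that binds zinc and copper, was higher in each pair, by 1.12, 0.61 and 0.61 on the log2 scale. Smyd2, a lysine methyltransferase, and Aldh2, mitochondrial aldehyde dehydrogenase, were higher by 0.89 ± 0.14 and 0.60 ± 0.09 (SE). Lag3, an inhibitory receptor also found on regulatory plasma cells, was at 3256 and 1780, 2423 and 1862, and 2321 and 1353. Il5ra, the interleukin 5 receptor of activated and B-1 cells, differed by -0.72 ± 0.11 (SE), Epcam, an adhesion molecule, by -0.85 ± 0.13 (SE), and Hspa13 and Prdx4, both of the endoplasmic reticulum, by -0.76 ± 0.11 and -0.56 ± 0.08 (SE). These 9 genes kept their sign in all 3 pairs, pair 3 included. They were picked by a test that uses all 3 pairs, so this is no separate support. None passed limma after adjustment.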
